A study of Drosophila melanogaster and Drosophila melanogaster
Drosophila virilis and Drosophila virilis with 9 samples.

Results

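The cytoplasmic ribosome of *Drosophila melanogaster* was followed through its protein genes in single cells of the gastrulating embryo. The set held every gene of the Drop-seq tables whose symbol starts with RpL or RpS, with the stalk genes *RpLP0*, *RpLP1* and *RpLP2*, and *sta*. These were 92 of the 15600 *D. melanogaster* genes listed, 53 of the large (60S) and 39 of the small (40S) subunit. The symbols chose them, not their levels, and 4 of the 92 carry names that end in -like.

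Drop-seq joins a cell to a barcoded bead in a droplet and counts captured mRNA molecules by unique molecular identifiers (UMIs). The 2 mixed-species libraries (replicates 1 and 2) held cells of a y1 w1118 strain of *D. melanogaster* with 2 transgenes, P{st.2::Gal4} and P{vnd::dsRED}, and cells of *D. virilis*, and the 5 single-species libraries (replicates 3 to 7) held cells of the *D. melanogaster* strain alone. One bulk mRNA-seq library came from whole live embryos of that same strain. A bulk library of *D. virilis* was not used here. All embryos were hand-picked at stage 6, after a 1 h lay and 2 h 30 min of ageing (3 h 30 min for *D. virilis*). Every group of *D. melanogaster* carries the Gal4 and dsRED transgenes, embryos were pooled, and dissociated cells were fixed in 80% methanol. Nothing states that the libraries came from separate pools of embryos, so p-values measure the spread between libraries, which may be technical.

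A *D. melanogaster* cell was a barcode with at least 1000 UMIs, at least 90% of them on genes of that species. Of the barcodes with at least 1000 UMIs, 196 of 3185 in replicate 1 and 84 of 2180 in replicate 2 were of neither species by this rule and left out. No doublet caller was run, so doublets of the same species remain, in deep cells and gates as elsewhere. There were up to 1568 such cells per library, 326 to 1055 of them with at least 3000 UMIs, and the cells of a library held 7134003 to 19611977 UMIs. The 39 cell type markers of mesoderm, ectoderm, gut, head and pole cells all had UMIs in each of the 7 libraries. Any 2 libraries shared 3 to 5 barcodes. Replicate 3, labelled as *D. melanogaster* alone, comes with a table that also lists *D. virilis* genes, as do replicates 1 and 2.

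A ribosome joins a small subunit, which reads the mRNA, to a large subunit, which forms the peptide bond. Most subunit proteins are needed in about the same number of copies. In flies the loss of a single copy of many of these genes gives the Minute phenotype of slow growth and thin bristles. The early embryo lives on ribosomes and mRNAs laid down by the mother until its own genome becomes active. Some of the genes come as pairs, in which the second copy is often known from the germ line.

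Ribosomal protein genes took a large part of the captured mRNA. They made up 36.4% and 38.3% of the *D. melanogaster* UMIs in the mixed-species libraries, and 35.2%, 37.5%, 34.7%, 34.6% and 35.7% in replicates 3 to 7. Of the 100 genes with the highest mean level over the 7 libraries, 75 were ribosomal protein genes. Most of the set was abundant. CPM are the UMIs of a gene scaled to a fixed library total. Of the 92 genes, 81 averaged at least 1000 CPM, and these ran from 1422 to 7753 CPM with a median of 4538 CPM. Among the others, 4 averaged 100 to under 1000 CPM and 7 under 10 CPM. Large subunit genes, which are 53 of the 92, took 56.8% to 57.3% of the ribosomal protein UMIs in the 7 libraries, near their share of the genes.

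The 5 highest genes were *RpL27A*, *RpS3A*, *RpL15*, *RpS20* and *RpL41*. *RpL27A*, a large subunit gene, averaged 7753 ± 729 CPM (SD, n = 7 libraries) and *RpS3A*, a small subunit gene on chromosome 4, averaged 7492 ± 570.5 CPM. *RpL15* averaged 7207 ± 677 CPM and *RpS20* 6950 ± 578 CPM. *RpL41*, which encodes the smallest ribosomal protein, averaged 6820 ± 1179 CPM. The neighbours in this order did not differ by more than their SD. Drop-seq counts molecules from their 3′ ends, so these levels are per molecule captured.

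The 5 lowest genes were near zero. *RpS10a* averaged 1.64 ± 0.55 CPM, *RpL22-like* 0.28 ± 0.19 CPM, *RpS28a* 0.15 ± 0.11 CPM, *RpL10Aa* 0.10 ± 0.08 CPM and *RpS28-like* 0.046 ± 0.064 CPM (SD, n = 7). Over all 7 libraries these last 4 genes had 22, 14, 8 and 4 UMIs. *RpL37b* and *RpS19b* lay just above, with 404 and 367 UMIs. The gap in the order fell between *RpL37b*, at 4.86 CPM, and *RpLP0-like*, at 126 CPM.

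**Figure D1:**
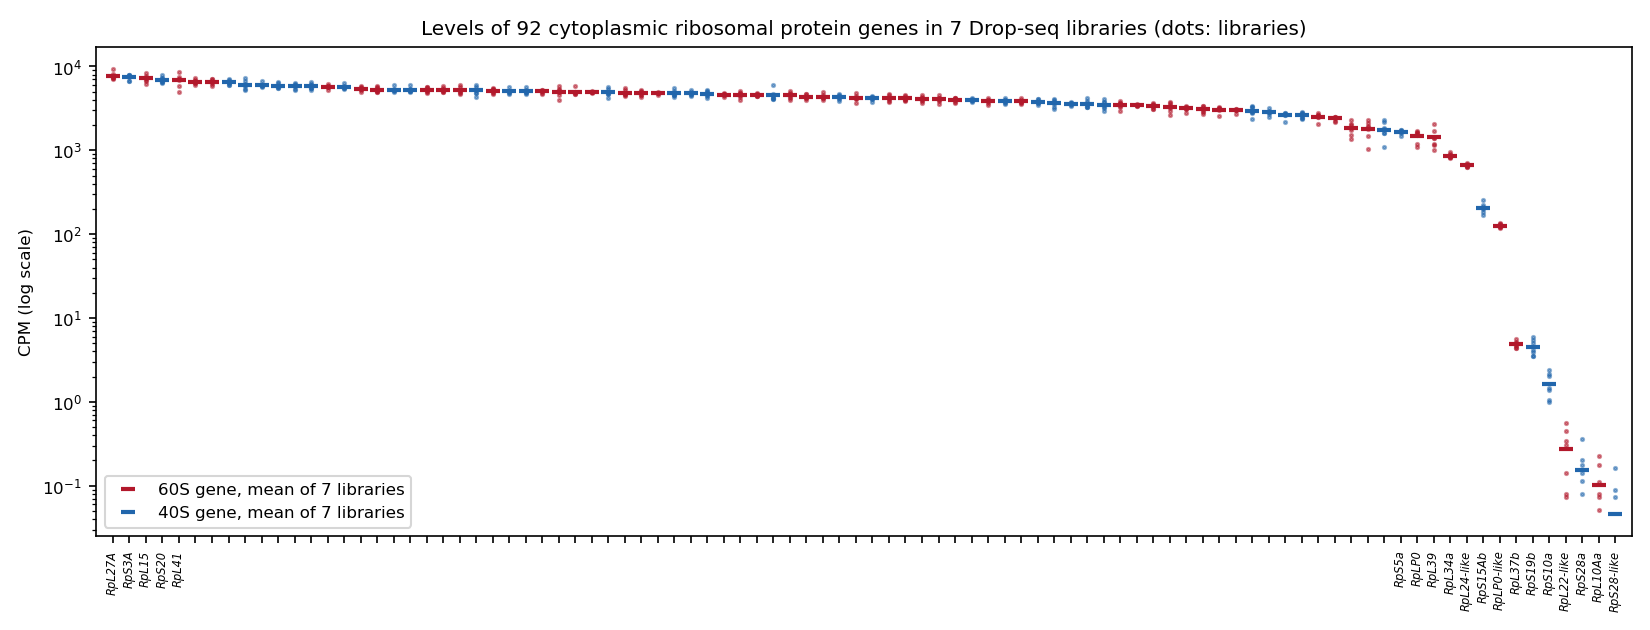
Level of each ribosomal protein gene in CPM (log scale) in the 7 Drop-seq libraries, ordered by the mean, with names at the 5 highest genes and at the low end. Bars mark the mean, dots the single libraries (a library with no UMI has no dot), red the large and blue the small subunit: 81 genes lie above 1000 CPM and 7 below 10 CPM.

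Libraries differed little for most genes and more for a few. Among the 81 genes above 1000 CPM the median coefficient of variation over the libraries was 7.0%. It was highest for *RpL39* (25.9%), *RpL22* (23.3%) and *RpS14b* (22.4%). *RpL22*, whose fly protein carries a long extension, had 1042 and 1782 CPM in the mixed-species libraries, and 2097, 1465, 1881, 2291 and 1934 CPM in replicates 3 to 7. *RpS14b* had 1100 and 1772 CPM in the mixed-species libraries, and 2167, 1614, 1596, 2300 and 1849 CPM in replicates 3 to 7. Both genes were lowest in replicate 1 and highest in replicate 6. Single cells, once thinned at random to 3000 UMIs, had UMIs of a median of 83 of the genes in every library. Of the 92 genes, 78 had a UMI in at least 95% of these cells in each library. As a background, *D. virilis* cells of the mixed-species libraries, thinned alike, had UMIs of a median of 25 of these *D. melanogaster* genes in replicate 1 and 17 in replicate 2. The median gene was seen in 25.6% and 16.6% of those cells and the most frequent in 95.2% and 91.7%. The median depth before thinning, over all cells of at least 1000 UMIs, was 3573 and 6239 UMIs in *D. virilis* cells and 4376 and 6330 UMIs in *D. melanogaster* cells of replicates 1 and 2.

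The paralog pairs split in 3 ways. In a first kind both copies were abundant. *RpS5b* made up 61.2% ± 1.3 of the *RpS5a* and *RpS5b* UMIs (SD, n = 7), and averaged 2631 ± 205 CPM against 1668 ± 91 CPM for *RpS5a*. *RpS5b* is known as the copy of the female germ line. *RpS14b* made up 39.98% ± 4.3 of its pair and *RpL34a* 25.5% ± 1.7. *RpS14a* and *RpS14b* lie side by side on chromosome X (7933742 to 7934677 and 7934898 to 7935792, plus strand, BDGP6) and are near-identical copies, so the split of reads between them is uncertain.

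In a second kind the other copy was a minor part. *RpL24-like*, whose yeast counterpart is an assembly factor of the large subunit, made up 12.0% ± 0.5 of its pair with *RpL24*. *RpLP0-like*, whose yeast counterpart Mrt4 holds the place of the stalk base during assembly, made up 8.0% ± 1.5 of its pair with *RpLP0*. *RpS15Ab* made up 5.4% ± 0.7 of its pair with *RpS15Aa*. In the last kind the second copy was all but absent. *RpS19b* and *RpL37b* each made up 0.09% of their pairs, *RpS10a* 0.03%, *RpL22-like* 0.015% and *RpS28a* 0.003%. *RpS10a*, *RpS19b* and *RpL22-like* are known as germ line or testis copies.

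The stalk, which recruits elongation factors, is built on the *RpLP0* protein with *RpLP1* and *RpLP2* as its arms. *RpLP1* averaged 5765 ± 260 CPM, *RpLP2* 5040 ± 190 CPM and *RpLP0* 1482 ± 244 CPM (SD, n = 7). *RpLP0* was thus lower than both arm genes in each library. The ubiquitin fusion genes *RpS27A* and *RpL40* averaged 5291 ± 362 CPM and 4574 ± 137 CPM. *sta*, the small subunit gene also known as the laminin receptor homologue, averaged 2833 ± 218 CPM.

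Ribosomal protein genes took a larger share of UMIs in ventral cells than in dorsal cells. Ventral cells were those in which *twi* and *sna*, which define mesoderm, were both seen and no dorsal gene was. Dorsal cells had 2 or more of the dorsal genes *tup*, *ush*, *zen*, *Doc3*, *Doc2* and *Doc1* and neither mesoderm gene, with counts thinned to 3000 UMIs for the choice. There were 445 ventral cells (33 to 90 per library) and 694 dorsal cells (46 to 156 per library). In replicates 1 to 7 the ribosomal protein share was 37.5%, 38.9%, 35.8%, 37.4%, 35.7%, 35.3% and 36.8% of UMIs in ventral cells, against 34.0%, 36.8%, 34.0%, 36.5%, 34.0%, 34.4% and 33.9% in dorsal cells. The share was higher in ventral cells of 7 of 7 libraries, by 1.99 ± 0.97 percentage points (SD over libraries), though the ranges of the libraries overlap. Since the genes were chosen with results of these data known, the share has no p.

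Gene by gene, 55 of the 87 ribosomal protein genes tested rose in ventral cells and none fell (edgeR quasi-likelihood test, adjusted p under 0.05 over all genes). Over all 6176 genes tested, 12.1% rose and 13.6% fell. The median change of the 87 genes was 0.11 on the log2 scale, a ratio of 1.08, against 0.00 over all genes. The 87 had positive changes without exception, with 27 of 51 large subunit genes and 28 of 36 small subunit genes past the threshold. Of the 55 genes, 42 were higher in ventral cells of every library. The share of all called genes with 1 direction in every library is not reported here. Leaving out replicate 7 gave 13 genes, leaving out replicate 2 gave 24, and leaving out replicate 5 gave 35, all higher in ventral cells. With thinned counts 6 passed, in cells of at least 10000 UMIs 32 passed, and without the library as a block 1 passed.

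The changes were small and alike. *RpS5a* (chromosome X, 17143588 to 17148264, minus strand) had 1716, 1820, 1584, 1734, 1874, 1705 and 1931 CPM in ventral cells of replicates 1 to 7, against 1653, 1627, 1413, 1585, 1654, 1568 and 1652 CPM in dorsal cells. Each library had its higher value in ventral cells, with a log2 change of 0.17 ± 0.04 (SE) and an edgeR adjusted p of 0.000631. *RpL22* averaged 1890 ± 454 CPM in ventral and 1704 ± 383 CPM in dorsal cells, with a log2 change of 0.17. The spread between libraries was wider than this change. Replicate 1 had nearly equal values, 1083 CPM in ventral and 1080.2 CPM in dorsal cells, and the other 6 libraries were higher in ventral cells. *sta* rose by 0.14, and so did *RpS2*, at the mRNA entry of the small subunit. *RpS4*, *RpL8* and *RpS21* rose by 0.14, and *RpL19*, *RpS14a* and *RpS12* by 0.13 on the log2 scale, each in 7 of 7 libraries. *RpS12* is known in flies for its part in the competition between cells that differ in ribosomal protein dose.

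Of the pairs and assembly copies, *RpLP0-like* had the largest called change, 0.31 ± 0.08 (SE), with 144 ± 11 CPM in ventral and 117 ± 12 CPM in dorsal cells (SD, n = 7), higher in ventral cells of 6 of 7 libraries. *RpS5b* had a log2 change of 0.08 and an edgeR adjusted p of 0.12, and its difference from *RpS5a* was not tested. *RpLP0* (0.15) and *RpLP2* (0.10) rose, whereas *RpLP1* (0.08) did not pass the test. *RpS27A* rose by 0.12, and *RpL40* had a change of 0.07 that did not pass.

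Other parts of the translation machinery were read from a list of 57 translation factor genes. Of 49 tested, 13 rose and 1 fell, with a median change of 0.11, against 12.1% of all genes that rose and 13.6% that fell. *pAbp*, the poly(A) binding protein, rose to 1966 CPM in ventral cells, against 1681 CPM in dorsal cells. *eIF-2gamma*, which carries the initiator tRNA, rose to 147 CPM in ventral cells, against 93.3 CPM in dorsal cells. *Rack1*, a protein of the small subunit itself, had 2385 CPM in ventral and 2172 CPM in dorsal cells and rose. Of 21 ribosome biogenesis genes tested 4 rose (*Nop56*, *NHP2*, *Non1* and *Nnp-1*) and none fell, a count not far from the share over all genes. Of 72 mitochondrial ribosomal protein genes, 2 rose and 3 fell.

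Depth moved with the gates. The median cell had 7654 to 24876 UMIs in ventral and 5789 to 11553 UMIs in dorsal cells, higher in ventral cells of each library. With thinned counts the share was 37.0% ± 1.4 in ventral and 34.7% ± 1.6 in dorsal cells, and in cells of at least 10000 UMIs it was 36.7% ± 1.2 in ventral and 34.8% ± 1.3 in dorsal cells (SD, n = 7). Both were higher in ventral cells of 7 of 7 libraries. With mitochondrial genome genes left out of the total it was 41.9% ± 1.1 in ventral and 39.8% ± 1.5 in dorsal cells, again in 7 of 7. The mesoderm markers summed to 1503 to 1797 CPM in ventral and 25.6 to 158 CPM in dorsal cells, and the gate genes are among them. In ventral cells 9 of 9 dorsal markers fell, gate genes included, and so did 4 of 5 posterior terminal and gut markers (69.0 to 149 CPM in ventral and 132 to 301 CPM in dorsal cells) and 3 of 4 head markers. Their part in the share was not tested.

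**Figure D2:**
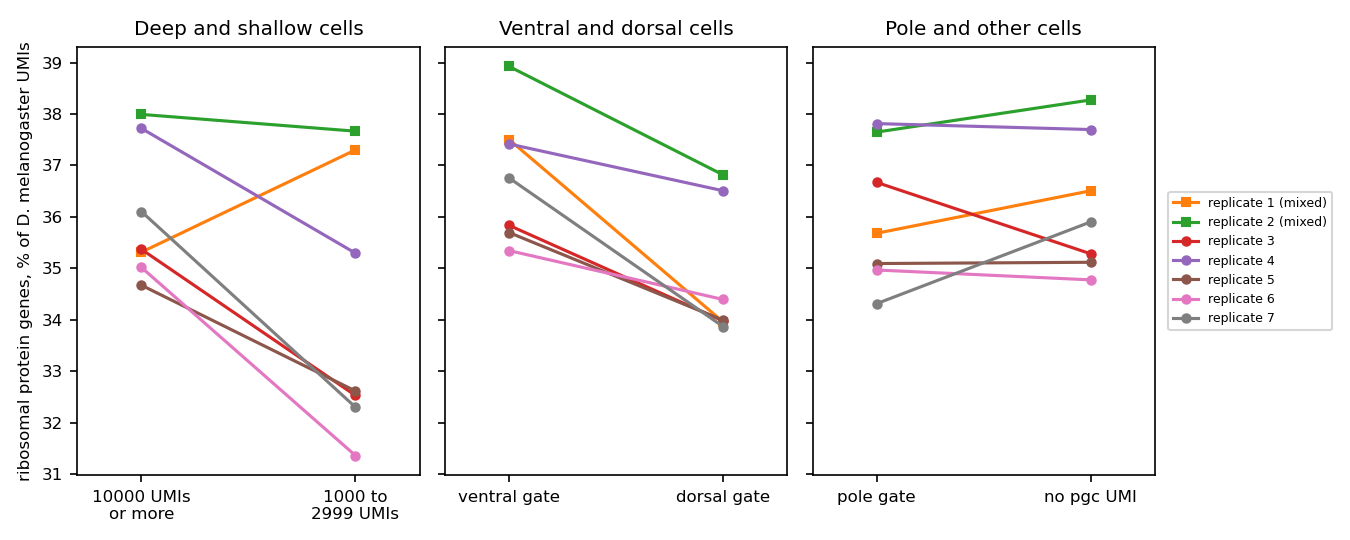
Share of *D. melanogaster* UMIs on ribosomal protein genes, in percent, in deep and shallow cells (left), ventral and dorsal cells (middle) and pole and other cells (right), 1 line per library, squares for the mixed-species libraries. The axis starts at 31%. Lines go down from ventral to dorsal in 7 of 7 libraries, and in both directions in the other panels.

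Pole cells, the germ line precursors at the posterior end, held about the same ribosomal protein share as the other cells. The pole gate took cells with at least 5 UMIs of *pgc*, a gene of the pole cells, among 3000. It held 17, 24, 35, 18, 19, 7 and 24 cells in replicates 1 to 7, 144 in all, beside 4622 cells with no *pgc* UMI. The share was 35.7%, 37.6%, 36.7%, 37.8%, 35.1%, 34.97% and 34.3% in pole cells, against 36.5%, 38.3%, 35.3%, 37.7%, 35.1%, 34.8% and 35.9% in other cells. It was higher in pole cells of 3 libraries and lower in 4, with a mean difference of -0.20 ± 0.94 percentage points. Without replicate 7 the difference was 0.04, without replicate 3 it was -0.46, without replicate 1 -0.09 and without replicate 2 -0.12. With counts thinned to 3000 UMIs it was -0.81, lower in pole cells of 6 of 7 libraries, and with mitochondrial genome genes left out of the total -0.75, lower in 5 of 7. These genes took 9.86% to 13.1% of UMIs in pole cells and 11.1% to 14.3% in other cells. All 7 pole cell markers rose in the gate, *pgc* among them, to a summed 7252 to 13184 CPM in pole cells, against 351 to 539 CPM in other cells. Of the posterior terminal and gut markers 3 of 5 rose and 2 fell, with a sum of 202 to 529 CPM in pole and 103 to 166 CPM in other cells. All 6 mesoderm and all 7 ventral neurogenic markers fell. Of the dorsal markers 6 of 9 fell and 1 rose, and of the head markers 3 of 5 fell and 1 rose. Their part in the results was not tested.

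The test by gene must be read against a shift of the whole transcriptome. In the edgeR fit the median of all 7564 genes was -0.15 on the log2 scale, and 46.5% passed the test, with 20.2% that rose and 26.3% that fell. Of 87 ribosomal protein genes 59 fell and none rose, with a median of -0.20, which is 0.05 below that of all genes. Scaled by total UMIs alone, an alternative chosen after seeing the data, 11 fell and 3 rose (*RpL19*, *RpL39* and *RpS29*) and the median was -0.01. The direction of most of these genes thus rests on the scaling. Shares of all genes called with total UMIs alone are not reported here. Leaving out replicate 2, 5 or 7 gave 30, 34 or 31 genes that fell, and a fit without the library as a block gave 9.

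A small group was lower in pole cells of each of the 7 libraries in plain CPM. The share of all genes lower in every library is not reported here. *RpL3*, at the peptidyl transferase centre, had 2124, 2864, 2386, 2964, 2587, 2659 and 2618 CPM in pole cells of replicates 1 to 7, against 3166, 3013, 2704, 3130, 3110, 3032 and 3090 CPM in other cells. Replicate 1 had by far the widest gap. The log2 change was -0.41 ± 0.08 (SE), with an edgeR adjusted p of 5.1e-05, and it was -0.22 with total UMIs alone. *RpS5a* averaged 1491 ± 124 CPM in pole and 1683 ± 94 CPM in other cells (log2 change -0.37), and *RpL13A* 3716 ± 363 CPM in pole and 4125 ± 305 CPM in other cells (-0.35). *RpL22* (-0.32), *RpS6* (-0.30) and *RpL5* (-0.29) fell with 7 of 7 libraries lower. Each of the genes named here also passed with total UMIs alone. *RpS6* is the target of the growth kinase S6K, and *RpL5* carries 5S rRNA into the large subunit.

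The paralog pairs were also read in pole cells. *RpS5b* had a log2 change of -0.37, lower in 6 of 7 libraries, beside -0.37 for *RpS5a*, and made up 60.9% ± 2.3 of the pair in pole and 61.0% ± 1.3 in other cells. *RpS19b* made up 0.053% ± 0.071 of its pair in pole and 0.093% ± 0.024 in other cells. *RpS10a* made up 0.015% ± 0.027 in pole and 0.031% ± 0.010 in other cells. *RpL34a* made up 27.7% ± 2.7 of its pair in pole and 25.5% ± 1.8 in other cells (SD, n = 7 for each). *RpS19b* and *RpS10a* had 4 and 2 UMIs over all pole cells, too few to show a difference.

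**Figure D3:**
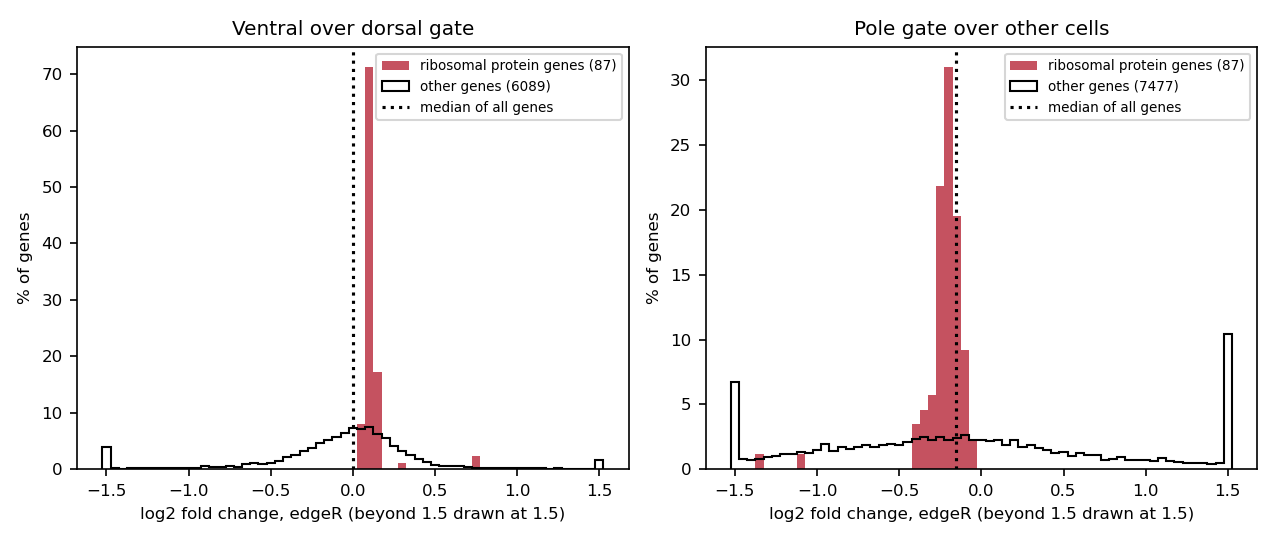
Log2 fold changes of the 87 ribosomal protein genes tested (red) and of the other genes tested (black outline), as percent of the genes in each set, for ventral over dorsal cells (left) and pole over other cells (right). The dotted line is the median of all genes. The red genes lie right of the line at left, with a median of 0.11, and mostly left of the line at right (68 of 87), with a median 0.05 below it.

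The other genes of translation are given beside the shares of all genes, 20.2% that rose and 26.3% that fell in pole cells. Of 49 translation factor genes tested, 4 rose and 16 fell, with a median of -0.19, against -0.15 over all genes. These calls use the same scaling as those of the ribosomal protein genes, so small falls may rest on it. Among the genes called lower, *Ef1gamma* had 1836 CPM in pole and 1832 CPM in other cells, and *Ef1beta* 2729 and 2764 CPM. The cap-binding gene *eIF-4E* rose to 381 CPM in pole cells, against 109 CPM in other cells, and *eIF5* to 640 CPM in pole cells, against 244 CPM in other cells. *eIF4G* had 307 CPM in pole and 148 CPM in other cells and rose. *Tctp* fell to 3731 CPM in pole cells, against 5029 CPM in other cells, and *EF2*, the translocation factor, to 2069 CPM in pole cells, against 2361 CPM in other cells. Of 21 ribosome biogenesis genes, 5 rose and 5 fell. *Tif-IA*, the initiation factor of RNA polymerase I, rose to 260 CPM in pole cells, against 43.5 CPM in other cells, and *Fib*, the fibrillarin gene, fell to 266 CPM in pole cells, against 358 CPM in other cells. Of 72 mitochondrial ribosomal protein genes, 15 rose and 12 fell. The counts of these last 2 lists lie near the shares over all genes.

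Deep cells had a higher ribosomal protein share than shallow cells in 6 of 7 libraries. Cells with at least 10000 UMIs held 35.3%, 38.0%, 35.4%, 37.7%, 34.7%, 35.02% and 36.1% in replicates 1 to 7, against 37.3%, 37.7%, 32.5%, 35.3%, 32.6%, 31.4% and 32.3% in cells with at least 1000 and under 3000 UMIs. Replicate 1 alone had the lower share in deep cells, and the mean difference was 1.87 ± 2.06 percentage points. Cell type markers moved with depth as well. Of the mesoderm markers 2 of 6 rose in deep cells, while 5 of 7 ventral neurogenic, 4 of 9 dorsal, 2 of 5 gut, 2 of 5 head and 2 of 6 pole cell markers fell. The pole cell markers summed to 448 to 819 CPM in deep and 629 to 1353 CPM in shallow cells. The part of cell type in the share was not tested. Mitochondrial genome genes moved the other way, with 10.1% to 12.6% of UMIs in deep and 12.4% to 19.5% in shallow cells, lower in deep cells of each library. With these left out of the total, the ribosomal protein share was 40.8% ± 1.4 in deep and 40.7% ± 3.1 in shallow cells, higher in 4 libraries and lower in 3. The course over depth was not the same in each library. In replicate 7 the share was 30.9% from 1000 to under 2000 UMIs, 34.0% up to under 3000 UMIs and 36.2% from 20000 UMIs, whereas in replicate 1 it was 36.4%, 37.8% and 33.7%.

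By gene, 2 of 87 passed (10 at an unadjusted p under 0.05, against 28.8% of all genes), while over all 6681 genes tested 4.58% rose and 11.5% fell. *RpLP0-like* rose in deep cells, with 134 ± 7 CPM in deep and 102 ± 11 CPM in shallow cells, higher in 7 of 7 libraries (log2 change 0.27 ± 0.08, edgeR adjusted p 0.015). *RpS5b* fell, with 2576 ± 186 CPM in deep and 2677 ± 331 CPM in shallow cells, lower in 5 of 7 libraries (log2 change -0.17, edgeR adjusted p 0.024). The median of the set was -0.03, against 0.01 over all genes. The count rose to 31, all higher in deep cells, when deep meant at least 5000 UMIs and shallow 1000 to under 2000 UMIs. With total UMIs alone, which put the median of all genes at 0.14, 15 rose and none fell, so the direction of most of the set rests on the scaling. For the wider bins and for total UMIs alone, the shares of all genes called are not reported here. Without the library as a block none passed. Leaving out replicate 1, 2 or 7 gave 1 gene, and leaving out replicate 6 gave 5.

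The kind of library left no gene past the test. None of 88 ribosomal protein genes passed between mixed-species and single-species libraries, and 0% of 8183 genes did (edgeR, adjusted p under 0.05). At an unadjusted p under 0.05, 4 of the 88 and 387 of the 8183 (4.73%) passed. DESeq2 called 8 genes, none of them ribosomal. In plain CPM, 11 of the 88 were higher in both mixed-species libraries than in any single-species library and 2 were lower, against 2.95% and 6.65% of all genes tested. The 11 included *RpS12*, with 5943 and 4757 CPM in mixed-species libraries, against 4233, 4410, 4240, 4087 and 4100 CPM in single-species libraries, and *RpL15*. The 2 lower genes were *RpS14a* and *RpS15Ab*. The share was higher in mixed-species libraries by 1.82 percentage points, by 0.90 without replicate 2 and by 2.75 without replicate 1. The groups overlapped in the share, at 36.4% and 38.3% in mixed-species and 34.6% to 37.5% in single-species libraries.

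The deposited table of 1297 cells gives each cell a suffix from 1 to 11 on its column name, whose meaning is not stated. It lists 90 of the genes, no mitochondrial genome gene, and cells with at least 12504 UMIs. Its ribosomal protein share was 41.0%, to be set beside the library shares without mitochondrial genome genes, not beside the plain ones. Suffix 3, the most common with 632 cells, had 40.9%. Suffix 4, with 298 cells and 637 CPM of *twi*, had 41.4%. Suffix 6, with 52 cells, 442 CPM of *zen* and 670 CPM of *Doc1*, had 37.9%, the lowest. Suffix 10, with 25 cells, 114 CPM of *zen* and 410 CPM of *Doc1*, had 41.3%. The other suffixes lay between 40.8% and 43.2%, the highest being suffix 1 with 4 cells.

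Within libraries that held at least 5 cells of both, suffix 6 was below suffix 3 in 5 of 5 libraries, by 2.4 ± 2.2 percentage points. Suffix 4 was above suffix 3 in 4 of 7 libraries, with a mean difference of 0.35 ± 1.14. Suffix 7, with 34 cells and 437 CPM of *fkh*, was above suffix 3 in 3 of 3 libraries. The suffix may be a cluster of these cells, in which case these genes had a part in it, so no test was made. The cells are in part those of the ventral and dorsal gates.

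Against bulk RNA of whole embryos the set was over-represented in Drop-seq. Its genes took 36.0% ± 1.4 of UMIs (SD, n = 7) in Drop-seq and 14.2% of reads on genes in the 1 bulk library. The median log2 ratio of Drop-seq over bulk, on CPM + 1, was 1.53 for the 88 genes with at least 1 CPM in either, and -0.76 over all 8786 such genes. More than 2-fold higher in Drop-seq in all 7 libraries were 60 of the 88 and 6.34% of all genes; more than 2-fold higher in bulk were 0 of the 88 and 32.9% of all genes. Bulk has no replicate, so this comparison has no test. In bulk, fewer cells of a type and less RNA per cell cannot be told apart.

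Transcript length moved with the ratio. The median annotated transcript of the 92 genes is 708 nt, against 1856 nt over the genes compared, and bulk counts grow with length whereas 3′ UMIs do not. Other genes under 1000 nt had a median ratio of 0.72, and the 74 ribosomal protein genes under 1000 nt 1.62. Across the 88 genes, which share the same libraries and one bulk sample, Spearman's rho of ratio and length was -0.70. With bulk given per length, as TPM (reads scaled by transcript length and to a fixed total), the set took 29.7% of bulk and its median ratio was 0.24. More than 2-fold higher in Drop-seq in every library were 4 of the 88, against 262 of all 8844 genes, a share near that of the set. More than 2-fold higher in bulk in every library were 0 of the 88, against 1586 of all 8844 genes. The ratio over all genes was then -0.52.

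The extremes were *RpL38* and *RpL4*. *RpL38*, on chromosome arm 2R (4515388 to 4516458, minus strand), averaged 3274 ± 404 CPM in Drop-seq and 297 CPM in bulk, a log2 ratio of 3.45 ± 0.18. *RpS29* (2.73), *RpL28* (2.60), *RpS20* (2.46) and *RpL37A* (2.41) followed. *RpL4* averaged 2401 ± 120 CPM in Drop-seq and 3695 CPM in bulk, a ratio of -0.62 ± 0.07. *RpL3* (-0.29), *RpLP0* (-0.29), *sta* (-0.05) and *RpS2* (0.14) had the next lowest ratios. The annotated transcripts of *RpL4* and *RpL3* are 1400 and 1496 nt long. Pair splits were alike in the assays for *RpS14b* (39.98% of its pair in Drop-seq and 41.3% in bulk) and *RpS15Ab* (5.4% in Drop-seq and 5.0% in bulk), and less so for *RpS5b* (61.2% in Drop-seq and 72.9% in bulk). *RpL7-like* was listed in bulk but not in the Drop-seq tables.

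**Figure D4:**
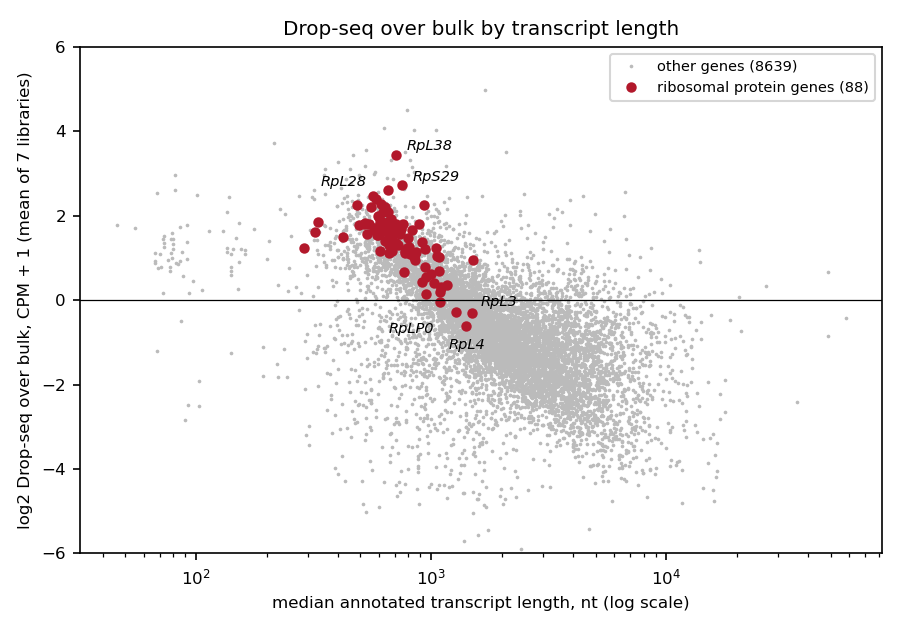
Log2 ratio of Drop-seq (mean of 7 libraries) over bulk, on CPM + 1, against the median annotated transcript length in nucleotides (log scale), for ribosomal protein genes (red) and other genes (grey). The red points lie among the short genes and mostly above 0, with *RpL38* at 3.45 and *RpL4* at -0.62.

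In the mixed-species libraries a few of the genes collected UMIs in cells of the other species. A *D. virilis* cell, with at least 90% of its UMIs on *D. virilis* genes, held 3.14% (replicate 1) and 1.70% (replicate 2) *D. melanogaster* UMIs. Ribosomal protein genes made up 40.3% and 49.5% of these UMIs in *D. virilis* cells of replicates 1 and 2, against 36.4% and 38.3% in *D. melanogaster* cells. Per gene, the rate per total UMI in *D. virilis* cells was a median of 2.63% and 1.33% of that in *D. melanogaster* cells for 85 ribosomal protein genes with at least 200 UMIs there. The medians over all genes rated were 2.93% and 1.29%, so most of the set behaved like other genes.

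In both libraries 4 genes stood apart. *RpL23A* was read in *D. virilis* cells at 19.7% and 18.6% of its rate in *D. melanogaster* cells in replicates 1 and 2. *RpL41* had 14.9% and 12.9%, *RpL37A* 12.7% and 10.6%, and *RpL35* 13.8% and 6.6%. These were the genes of the set at more than 3 times the median rate in both libraries, 4 of 85, against 1.1% of the 3170 genes rated in both. In replicate 2, *RpS7*, *RpS23* and *RpL28* were among the other genes past the same mark. With the genes past it left out (4 in replicate 1, 8 in replicate 2), the share was 34.3% in both replicates in *D. virilis* cells, against 35.1% and 35.4% in *D. melanogaster* cells. Whether reads of the *D. virilis* copy map to these genes was not tested.

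In the other direction, 7 ribosomal protein genes have a *D. virilis* entry that bears their name: *RpL14*, *RpL15*, *RpL31*, *RpL32*, *RpS18*, *RpS3* and *RpS3A*. Whether other genes of the set have a *D. virilis* entry under another name was not tested. In *D. virilis* cells the *D. melanogaster* entry took 1.12% to 2.36% of a pair in replicate 1 and 0.618% to 1.01% in replicate 2. In *D. melanogaster* cells the *D. virilis* entry took 1.75% to 4.52% in replicate 1 and 0.923% to 1.66% in replicate 2. In *D. melanogaster* cells of replicate 3 it took 0.991% for *RpL14* (970 UMIs) and at most 0.18% for the other 6 genes.

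**Figure D5:**
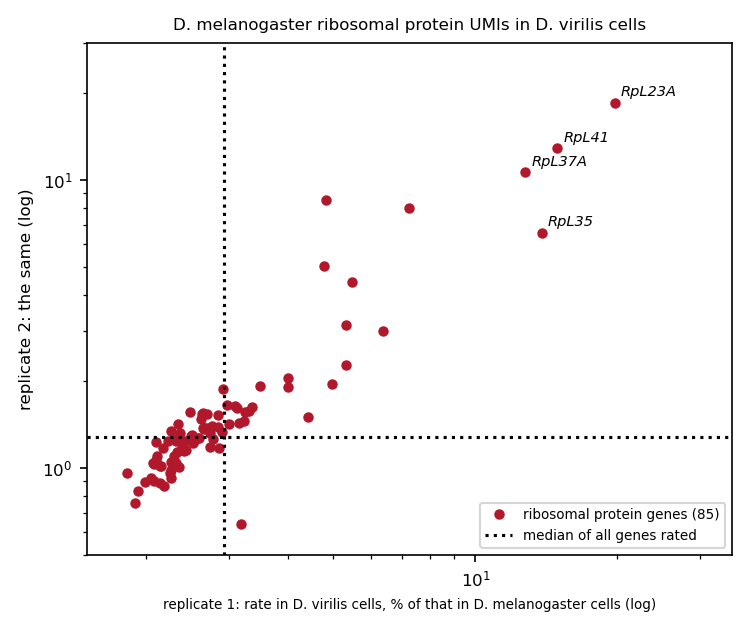
Rate of *D. melanogaster* ribosomal protein UMIs in *D. virilis* cells, as percent of the rate in *D. melanogaster* cells, in replicate 1 (horizontal) and replicate 2 (vertical), both on log scales, 1 point per gene. Dotted lines are the medians of all genes rated, 2.93% and 1.29%. *RpL23A*, *RpL41*, *RpL37A* and *RpL35* lie far above both.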

How the data were processed

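The authors deposited raw counts, as UMIs per gene and barcode for Drop-seq and as reads per gene for bulk. The submitters' processing notes name STAR, HTSeq and BDGP6, and versions are not given in the sources used here. Counts of cells were summed per library and arm. The quasi-likelihood test of edgeR 4.0.16 (R 4.3.3) was two-sided, on genes kept by filterByExpr and scaled by TMM. Its p-values were adjusted by Benjamini-Hochberg over all genes, with an FDR of 0.05. In the depth, gate and pole comparisons the library was a block, since both sums come from 1 library, and each arm needed 5 cells. SE was derived from the F statistic. CPM was computed over *D. melanogaster* UMIs or bulk reads on genes, and bulk left out 45.2% of reads on no feature, 10.1% not unique and 0.728% ambiguous. Bulk was compared at a pseudocount of 1 CPM. Lengths and positions come from the BDGP6.54 annotation, where 90 of the 92 genes matched by symbol and 2 by synonym. Opposite-strand genes overlap 28 of the 92, and *RpS27A* and *RpS28-like* overlap a protein-coding gene on their own strand. Of the 1297 cells, 377 have counts that differ from their library table, and 12 have a ribosomal protein total that differs by over 1%.

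Named genes were up to 10 called per direction with the largest change and 1 direction in every library, the 5 highest and 5 lowest, the 5 largest ratios to bulk per direction from 100 CPM, and all paralog pairs, stalk, ubiquitin fusion genes and *sta*. The variable genes, *RpS5b* in deep cells, the translation and biogenesis genes named from their lists and the genes read in *D. virilis* cells were chosen after their values were seen. Genes, lists and gates were chosen with earlier results of these data known. Some genes that the rule names are not reported here. DESeq2 1.42.0 and other settings were alternatives. Scripts were tested on simulated data and ran in Python 3.11.15 with numpy 2.4.6, pandas 2.3.3, scipy 1.17.1 and matplotlib 3.10.9.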

Additional observations from a re-analysis of the deposited data

Results flagged for a closer look

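In 4 of 23 sets of library values tested, 1 library lay apart from the rest by Dixon's criterion, where chance gives about 1 in 20. The log2 CPM ratio of *sta*, ventral over dorsal cells, was 0.34 in replicate 6 against a median of 0.10 over the 7 libraries. That of *RpL8* was 0.026 in replicate 4 against a median of 0.13, and that of *RpL19* was 0.24 in replicate 1 against a median of 0.07. The ratio of *RpL3*, pole over other cells, was -0.58 in replicate 1, where the pole gate held 17 cells, against a median of -0.19.

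In the *D. melanogaster* cells of replicate 3, a library labelled as *D. melanogaster* alone, 22160 UMIs (0.113%) were counted on *D. virilis* genes. Of these, 1517 lay on the 7 *D. virilis* entries that bear the name of a ribosomal protein gene. Of the barcodes of that library, 1 passed as a *D. virilis* cell.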

How the results depend on the processing

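Mean share differences kept their direction under each alternative run, except that of pole cells, which was 0.22 percentage points with at least 2 *pgc* UMIs and 0.04 without replicate 7. The size of the depth difference did not hold. With mitochondrial genome genes left out, deep minus shallow was 0.05 ± 2.81 (1.87 as reported), higher in 4 libraries and lower in 3. The mixed-species minus single-species share was 3.17 with the median per cell (1.82 as reported). Leaving out 1 replicate gave 0.90 to 2.75 for that share, 1.553 to 2.52 for deep minus shallow, 1.74 to 2.18 for ventral minus dorsal and -0.46 to 0.04 for pole minus other. Genes called between deep and shallow cells, 2 as reported, were 4 with RLE size factors, 4 with DESeq2, 1 at 95% purity, 0 with no replicate block, 31 with the wider depth bins, 15 with total UMIs alone and 1 to 5 with a replicate left out. With no replicate block, 1 gene (55 as reported) passed for ventral over dorsal and 9 (59 as reported) for pole over other. Ventral over dorsal gave 6 with thinned counts, 32 in cells of at least 10000 UMIs and 13 to 61 with a replicate left out. Pole over other gave 31 with at least 2 *pgc* UMIs, 14 with total UMIs alone and 30 to 80 with a replicate left out. The median ratio to bulk was 1.45 with no filter, 0.24 per length and 1.501 to 1.54 with a replicate left out. No call was gained between the kinds of library. Thinned counts and 7 to 35 pole cells per library hold few UMIs, which limits low genes. The cause of these moves was not tested. For the depth, gate and pole alternatives, the shares of all genes called are not reported here. The alternatives on total UMIs, deep gated cells and bulk per length were chosen after seeing the data.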

Other observations

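The barcodes of the table of 1297 cells were each found in 1 library table only. Suffix 9, with 48 cells and 508 CPM of *srp*, had ribosomal protein shares of 38.7% to 46.1% over the 5 libraries with at least 5 such cells, the widest span of any suffix but suffix 2, at 36.8% to 46.3%. Thinned cells of 1 library had a ribosomal protein share whose 5th and 95th percentiles were 24.7% and 43.9% in replicate 6, and 30.0% and 44.8% in replicate 1.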
